A study of Mus musculus with 4 samples.

Results

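The genes described here are the T cell coreceptors *Cd4*, *Cd8a* and *Cd8b1* and the lineage factors *Zbtb7b*, *Runx3* and *Gata3*. They are 6 of the 27998 genes in the count tables. They were chosen for their role in the split between helper and cytotoxic T cells, with earlier results of these data known. They were read in T cells, defined as deposited cells with at least 200 genes detected and at least 1 unique molecular identifier (UMI, a tag that marks 1 captured RNA molecule) of *Cd3d*, *Cd3e* or *Cd3g*. This rule kept 4858 of 5434 deposited cells. The cells came from the blood of C57BL/6 mice, 18 days after a subcutaneous challenge with the colon carcinoma line MC-38. All 4 groups carried the tumor, and the study's methods describe 6 to 8 week old mice, female for this tumor. The first group was left untreated. The second received a blocking antibody to PD-L1 on days 10, 13 and 17. The third was labelled only as OX40 and is called anti-OX40/CpG here, because the study's regimen joins an agonistic antibody to OX40 with CpG, a TLR9 agonist, injected on day 7. The last group, PDOX, received both treatments. Each group was 1 library, and mouse, library and treatment cannot be told apart. T cells were enriched by depletion of other cells with a magnetic kit, run 2 times in a row, so no antibody to CD4 or CD8 took part in the isolation.

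The CD4 and CD8 coreceptors bind MHC class II and class I and bring the kinase Lck to the T cell receptor. CD4 is a single chain, whereas CD8 on most blood T cells pairs an alpha chain (*Cd8a*) with a beta chain (*Cd8b1*). The choice of lineage is made in the thymus, where *Gata3* acts upstream of *Zbtb7b*, which encodes ThPOK, the factor that commits cells to the CD4 helper fate, and where *Runx3* silences *Cd4* and sustains the CD8 cytotoxic fate. ThPOK and Runx3 oppose each other. In mature cells *Gata3* is also known for T helper 2 cells, and *Runx3* for effector cytotoxic programs.

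The libraries held 698 T cells in the untreated group, 1331 with anti-PD-L1, 1485 with anti-OX40/CpG and 1344 with PDOX, between 89.0% and 95.3% of the cells with at least 200 genes. *Cd3d* was detected in 88.7% to 91.5%, *Cd3g* in 84.5% to 88.9% and *Cd3e* in 64.6% to 69.0% of the T cells. The T cells were gated on these genes, so the detection shares do not check the label of CD3+ T cells. Deposited UMIs per library ran from 2392650 to 4969885, and the median T cell held 1465.5 to 1630 UMIs. The untreated library had the fewest cells and 7.99% of its UMIs from hemoglobin genes, against 0.344% to 1.70% in the other libraries. The libraries shared 16 cell barcodes in all pairs together. With 1 library per treatment there is no test between treatments: the intervals given are exact 95% confidence intervals (CI) that cover counting error only.

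The coreceptor genes were detected in a minority of T cells in almost every library. A UMI of *Cd4* was found in 18.3% of untreated, 20.0% of anti-PD-L1, 22.3% of anti-OX40/CpG and 28.2% of PDOX T cells. *Cd8a* was found in 31.8%, 37.6%, 34.6% and 24.6%, and *Cd8b1* in 46.4%, 51.5%, 46.5% and 37.1% in the same order. PDOX was thus the highest library for *Cd4* and the lowest for both CD8 genes, and its interval for *Cd4* (25.8% to 30.7%) did not overlap that of the untreated library (15.5% to 21.4%). As a level for free RNA in the droplets, 132 cells with UMIs of at least 2 B cell marker genes and none of the *Cd3* genes were read. *Cd4* was seen in 3.03%, *Cd8a* in 2.27% and *Cd8b1* in 9.85% of them, at a median of 1203.5 UMIs per cell against 1569 in the T cells. Detection of all 3 genes in T cells was above that level in each library.

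The T cells were put in 4 classes from these UMIs: CD8 cells (UMIs of *Cd8a* or *Cd8b1* and none of *Cd4*), CD4 cells (UMIs of *Cd4* and none of the CD8 genes), cells with both, and cells with no coreceptor UMI. CD8 cells were 46.4% of untreated, 49.8% of anti-PD-L1, 45.3% of anti-OX40/CpG and 33.9% of PDOX T cells. CD4 cells were 14.6%, 14.8%, 17.9% and 22.4%. Among the cells of either class, 76.1% were CD8 cells in the untreated library (CI 71.7% to 80.0%), 77.1% under anti-PD-L1 (74.1% to 79.9%), 71.7% under anti-OX40/CpG (68.7% to 74.5%) and 60.2% in PDOX (56.7% to 63.7%). The PDOX interval lay below the others. After every cell was thinned to 1000 UMIs, with the 1022 shallower T cells left out, the same shares were 81.6%, 82.1%, 77.9% and 66.6%, in the same order of libraries. These shares rest on 1 mouse sample per treatment.

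**Figure D1:**
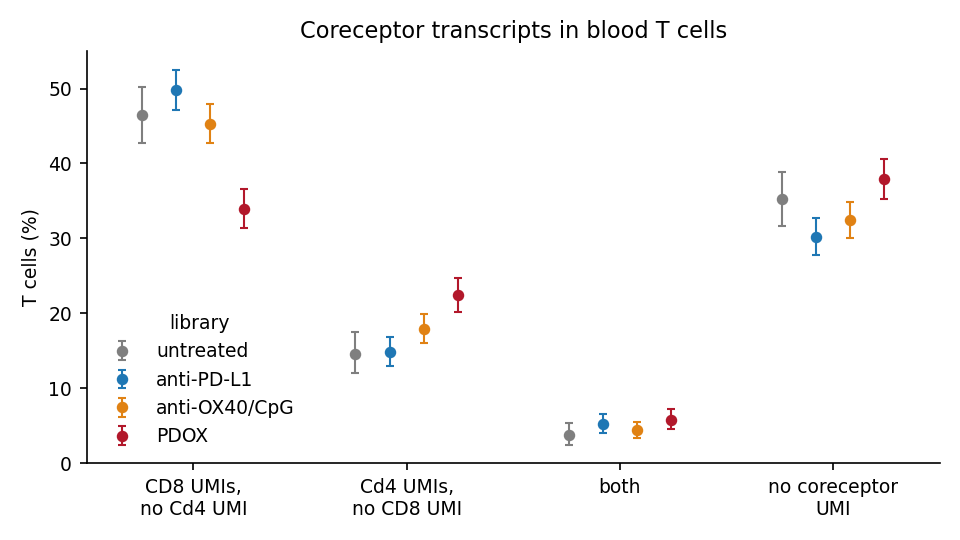
Share of T cells (%) in each coreceptor class, by library, with exact 95% intervals for counting error. CD8 cells were 46.4% of untreated and 33.9% of PDOX T cells, CD4 cells stood at 14.6% and 22.4%, and cells with no coreceptor UMI made up 30.2% to 37.9%.

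Many T cells carried no UMI of any coreceptor gene. These were 35.2% of untreated, 30.2% of anti-PD-L1, 32.4% of anti-OX40/CpG and 37.9% of PDOX T cells, 1638 cells in all, with a median of 1358.5 UMIs against 1672 in CD8 cells and 1614 in CD4 cells. The share fell steeply with depth, from 51.3% of the 1022 cells under 1000 UMIs through 38.0% from 1000 to below 1500, 30.8% from 1500 to below 2000 and 17.04% from 2000 to below 3000 UMIs, and stood at 19.3% of the 321 cells with 3000 or more. Each library went the same way over the first 4 depth ranges. In the deepest range the libraries spread from 12.2% under anti-OX40/CpG to 43.8% of 32 untreated cells. At a fixed 1000 UMIs the share was 40.3%, 37.8%, 38.0% and 44.3% in the order above. Cells with *Foxp3*, the regulatory T cell factor of the CD4 lineage, give an independent view of dropout: of 70 *Foxp3*+ cells without CD8 UMIs, 42.9% (31.1% to 55.3%) had a UMI of *Cd4*.

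**Figure D2:**
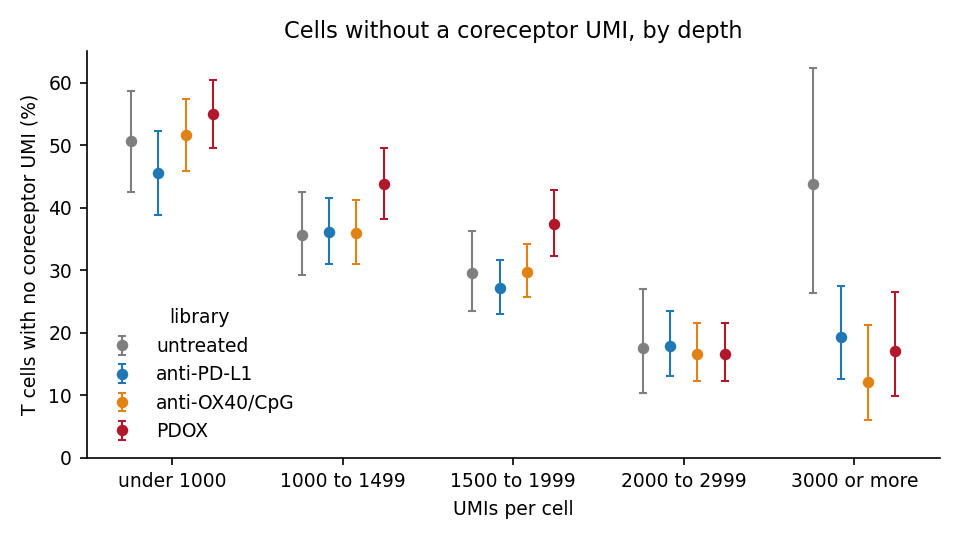
Share of T cells (%) with no UMI of *Cd4*, *Cd8a* or *Cd8b1* by total UMIs per cell, 1 point per library in each depth range, with exact 95% intervals. The share fell from 51.3% under 1000 UMIs to 17.04% from 2000 to below 3000 UMIs over all libraries, and the 32 deepest untreated cells stood apart at 43.8%.

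The 3 coreceptor genes differed in how thinly they were sampled. Of the cells with *Cd4*, 71.6% held a single UMI, and the highest cell had 6. Of the cells with *Cd8a*, 45.1% held a single UMI, with a median of 2 and a maximum of 28. Of the cells with *Cd8b1*, 24.5% held a single UMI, with a median of 3 and a maximum of 43. Detection of *Cd4* therefore hung on 1 molecule in most positive cells, and it went from 16.5% of T cells under 1000 UMIs to 32.7% at 3000 or more. *Cd8a* went from 15.4% to 54.8% and *Cd8b1* from 29.4% to 62.3% over the same ranges.

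The chains of CD8 were detected together in most CD8 cells, and *Cd8a* was the one more often missed. Both genes were seen in 58.3% of untreated, 64.9% of anti-PD-L1, 65.4% of anti-OX40/CpG and 59.4% of PDOX CD8 cells. Over all libraries, 662 of the 2116 CD8 cells (31.3%) had *Cd8b1* alone and 124 (5.86%) had *Cd8a* alone. Cells with both genes held a median of 1767.5 UMIs, against 1451 with *Cd8b1* alone and 1323 with *Cd8a* alone. Among cells with *Cd8b1* and no *Cd4*, *Cd8a* was found in 39.6% of the 432 cells with 1 *Cd8b1* UMI, 59.0% with 2, 72.8% with 3 to 4, 80.1% with 5 to 9 and 92.1% with 10 or more. The other way round, *Cd8b1* was found in 85.7% of the 643 cells with 1 *Cd8a* UMI, 94.7% with 2, and all 116 cells with 5 or more (109 and 7 in the ranges of 5 to 9 and 10 or more). A cell in which only *Cd8a* was seen was therefore rare once more than 1 *Cd8a* UMI had been captured.

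**Figure D3:**
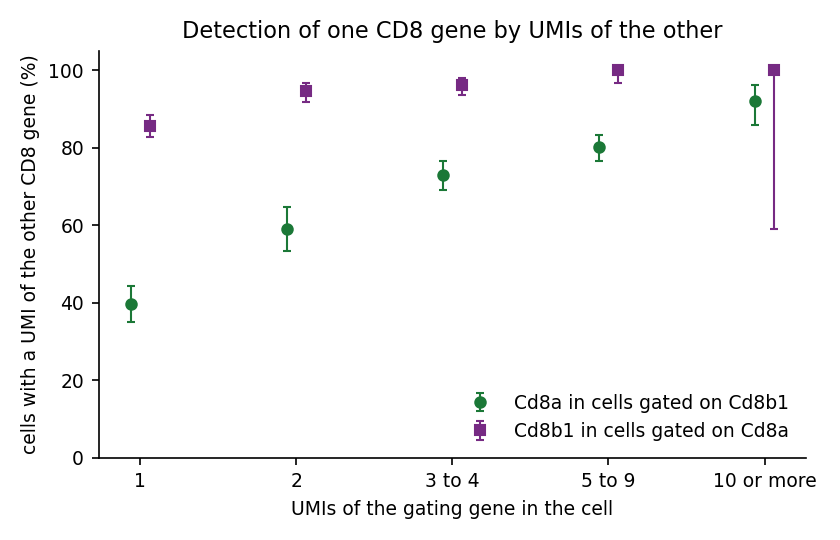
Share of cells (%) in which the partner chain was detected, by the number of UMIs of the first chain, in cells without *Cd4*, with exact 95% intervals. *Cd8a* was found in 39.6% of cells with 1 *Cd8b1* UMI and 92.1% of cells with 10 or more, and *Cd8b1* in 85.7% of cells with 1 *Cd8a* UMI.

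Each chain was also tested on cells gated by the other, so that the gene tested took no part in the gate. Cells with *Cd8a* were set against cells with *Cd4* within each library, and UMIs were summed per library and gate. *Cd8b1* was 20.5-fold higher in the *Cd8a*-gated cells (log2 difference 4.36, SE 0.11, adjusted p = 1.2e-10, edgeR quasi-likelihood test with Benjamini-Hochberg adjustment), in a fit that called 4.25% of 6370 genes. *Cd8a* was 41.6-fold higher in *Cd8b1*-gated than in *Cd4*-gated cells (log2 5.38, SE 0.16, adjusted p = 4.7e-13, edgeR with Benjamini-Hochberg adjustment), where 5.33% of 6114 genes were called. In these and the later fits the 4 libraries act as replicates of a contrast made inside each library, so the p-values measure the spread of that contrast over 4 libraries that differ in treatment. The summed *Cd8b1* to *Cd8a* UMI ratio in CD8 cells was 2.42 in untreated mice, 2.55 under anti-PD-L1, 2.48 under anti-OX40/CpG and 3.02 in PDOX.

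Cells with UMIs of both *Cd4* and a CD8 gene were few and held few UMIs of each. They were 3.72% of untreated, 5.18% of anti-PD-L1, 4.38% of anti-OX40/CpG and 5.80% of PDOX T cells, 238 cells in all. Only 22 of them (9.24%) had at least 2 UMIs of each coreceptor. In 171 (71.8%) *Cd4* rested on 1 UMI, and in 125 (52.5%) the CD8 genes did. These cells were deeper than cells of a single class, with a median of 2008 against 1661 UMIs, and their share rose with depth from 1.47% of cells under 1000 UMIs to 18.7% at 3000 or more. Thinned to 1000 UMIs, they were 1.88%, 2.09%, 1.89% and 2.91%. UMIs of markers of other blood cells were seen in 28.6% of them, 25.2% of CD8, 20.1% of CD4 and 23.6% of no-coreceptor cells. By library the share in cells with both was 30.8%, 21.7%, 20.0% and 41.0%, the last beside 29.8% of CD8 and 19.9% of CD4 cells in PDOX. The part of free RNA and of droplets with more than 1 cell in this class was not tested.

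Levels are given from here as UMIs of a gene per 10000 UMIs summed over the cells of a class, and are compared between classes or libraries and not between genes. Over all T cells *Cd4* stood at 1.44 in untreated mice, 1.33 under anti-PD-L1, 1.89 under anti-OX40/CpG and 2.46 in PDOX, a PDOX to untreated ratio of 1.71 (CI 1.43 to 2.05). Within CD4 cells, where the gate itself sets a floor, it was 7.56, 7.88, 7.90 and 8.34, a ratio of 1.10 (0.90 to 1.36). Most of these cells held 1 *Cd4* UMI, so the gate nearly fixes this level, and more *Cd4* per cell cannot be told apart from more cells with *Cd4*. *Cd8a* over all T cells was 3.89, 4.75, 4.34 and 3.32, and within CD8 cells 8.13, 8.28, 8.67 and 7.90, with a PDOX to untreated ratio of 0.97 (0.86 to 1.10). *Cd8b1* within CD8 cells was 19.7, 21.1, 21.5 and 23.9, a ratio of 1.21 (1.12 to 1.31) for PDOX against untreated. Both CD8 genes took part in the gate for these cells, and ratios within parts of the CD8 cells are given below.

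*Zbtb7b* and *Runx3* stood in opposite order in CD4 and CD8 cells, so their promoter sequences are shown for the letters bound by Runx factors. RefSeq sequences of GRCm38.p6, the mm10 build, from 250 bases before to 50 bases after a transcription start, matched 4 of the 6 genes (*Cd8a*, *Zbtb7b*, *Runx3*, *Gata3*) with 6 starts. In the sequences below, 5′ to 3′ on the gene's strand, capitals mark TGTGGT or its reverse complement ACCACA. The *Runx3* start at chr4:135120395-135120694 (plus strand) held 2 copies, which begin 134 and 126 bases before the start. The *Zbtb7b* start at chr3:89387622-89387921 (minus strand) held 1 copy, 89 bases before the start.
Runx3: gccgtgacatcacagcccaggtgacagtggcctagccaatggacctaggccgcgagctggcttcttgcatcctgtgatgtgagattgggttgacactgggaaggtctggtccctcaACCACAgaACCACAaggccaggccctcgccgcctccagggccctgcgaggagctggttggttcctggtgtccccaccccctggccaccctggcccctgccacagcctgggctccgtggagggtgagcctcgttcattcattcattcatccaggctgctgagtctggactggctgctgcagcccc
Zbtb7b: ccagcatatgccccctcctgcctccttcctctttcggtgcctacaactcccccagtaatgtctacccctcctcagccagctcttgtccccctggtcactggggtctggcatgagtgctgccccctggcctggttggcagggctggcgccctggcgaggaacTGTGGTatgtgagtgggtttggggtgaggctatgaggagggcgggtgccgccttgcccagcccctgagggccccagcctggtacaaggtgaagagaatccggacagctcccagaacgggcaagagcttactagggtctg
Of 32851 RefSeq promoters of this length, 16.8% held the letters at least once and 1.81% at least 2 times. The other starts of *Runx3* and *Zbtb7b* and those of *Cd8a* and *Gata3* held none, and none of the 6 held a GATA motif (AGATAA or TGATAA on either strand), which 18.6% of all promoters did. The UMIs tag 3′ ends, so they do not tell the starts of *Runx3* or *Zbtb7b* apart.

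*Zbtb7b*, which encodes ThPOK, was captured rarely and mostly in CD4 cells and cells with no coreceptor UMI. It was seen in 5.76% of T cells, and in 260 of those 280 cells (92.9%) by a single UMI. In CD4 cells it was found in 5.88% of untreated, 7.11% of anti-PD-L1, 9.77% of anti-OX40/CpG and 14.0% of PDOX cells, at levels of 0.360, 0.483, 0.606 and 0.860 per 10000 UMIs (6, 15, 29 and 46 UMIs). In CD8 cells it was found in 1.54%, 3.02%, 2.08% and 2.85%, at levels of 0.098, 0.149, 0.119 and 0.182 (5, 20, 14 and 15 UMIs). Every CD4 level was above every CD8 level. The B marker cells held *Zbtb7b* in 4.55% of cells, against 2.46% of CD8 cells and 10.2% of CD4 cells over all libraries. Free RNA and expression by the B cells themselves cannot be told apart there. The comparison therefore does not show whether *Zbtb7b* in CD8 cells was background. *Zbtb7b* was lower in CD8 than in CD4 cells by 2.01 on the log2 scale (log2 difference -2.01, SE 0.24, adjusted p = 0.00052, edgeR quasi-likelihood with Benjamini-Hochberg adjustment), in 4 of 4 libraries. The fit left out the coreceptor genes and called 241 of 6145 genes (3.92%), 143 higher (2.33%) and 98 lower (1.59%) in CD8 cells. Read from the factor, 39.3% of the 280 *Zbtb7b*+ T cells had *Cd4*, against 21.7% of the *Zbtb7b*- cells, and 26.4% had a CD8 gene, against 49.8%.

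*Runx3*, the cytotoxic lineage factor, was higher in CD8 than in CD4 cells. It was seen in 17.3% of untreated, 17.96% of anti-PD-L1, 24.8% of anti-OX40/CpG and 21.7% of PDOX T cells, against 5.30% of the B marker cells. Its level in CD8 cells was 1.92, 1.64, 2.92 and 1.95 per 10000 UMIs (98, 220, 342 and 160 UMIs). In CD4 cells it was 0.660, 0.547, 1.11 and 1.59 (11, 17, 53 and 85 UMIs). Each CD8 level was above every CD4 level, with PDOX CD4 cells next to anti-PD-L1 CD8 cells. *Runx3* was 2.18-fold higher in CD8 cells (log2 difference 1.13, SE 0.19, adjusted p = 0.0052, edgeR with Benjamini-Hochberg adjustment), in 4 of 4 libraries. The call was lost without the anti-OX40/CpG library (log2 0.998, adjusted p = 0.12 in edgeR, Benjamini-Hochberg) and without the library term (1.07, adjusted p = 0.13). Within single libraries the CD8 to CD4 ratio was 2.91 (1.56 to 6.02) for untreated cells, 3.0 (1.83 to 5.24) under anti-PD-L1, 2.63 (1.97 to 3.59) under anti-OX40/CpG and 1.22 (0.94 to 1.61) in PDOX. The PDOX interval held a ratio of 1 and lay below those of anti-PD-L1 and anti-OX40/CpG, and overlapped narrowly with that of the untreated library, and the difference between libraries was not tested. The level in PDOX CD4 cells was 2.41 times that in untreated CD4 cells (1.28 to 5.01), whereas in CD8 cells the ratio was 1.01 (0.78 to 1.32). In the anti-OX40/CpG library CD8 cells stood at 1.52 times the untreated level (1.21 to 1.92) and the PDOX CD8 cells at 0.67 times the anti-OX40/CpG level (0.55 to 0.81). Of all *Runx3*+ T cells 20.0% had *Cd4*, from 10.7% in the untreated to 33.6% in the PDOX library.

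*Gata3* was higher in CD4 cells, by a smaller margin than *Zbtb7b* showed. It was seen in 11.2% of untreated, 13.2% of anti-PD-L1, 15.2% of anti-OX40/CpG and 20.3% of PDOX T cells, against 0.758% of the B marker cells. Its level in CD4 cells was 0.840, 1.38, 1.40 and 2.56 per 10000 UMIs, and in CD8 cells 0.784, 0.701, 0.896 and 0.961. The untreated CD4 level lay inside the range of the CD8 levels, and the other CD4 levels lay above it. *Gata3* was lower in CD8 cells, with a log2 difference of -0.85 (SE 0.17, adjusted p = 0.016, edgeR with Benjamini-Hochberg adjustment), in 4 of 4 libraries. The call was lost with DESeq2 (-0.81, adjusted p = 0.059), without the library term (-0.91, adjusted p = 0.16 in edgeR, Benjamini-Hochberg), without anti-OX40/CpG (-0.95, 0.084) and without PDOX (-0.60, 0.16). Within libraries the CD8 to CD4 ratio was 0.93 for untreated cells, 0.51 under anti-PD-L1, 0.64 under anti-OX40/CpG and 0.38 in PDOX. PDOX CD4 cells held 3.05 times the untreated level (1.76 to 5.73) and 1.83 times the anti-OX40/CpG level (1.36 to 2.49). These ratios are over all CD4 cells, whose make-up differed between libraries, as given below.

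**Figure D4:**
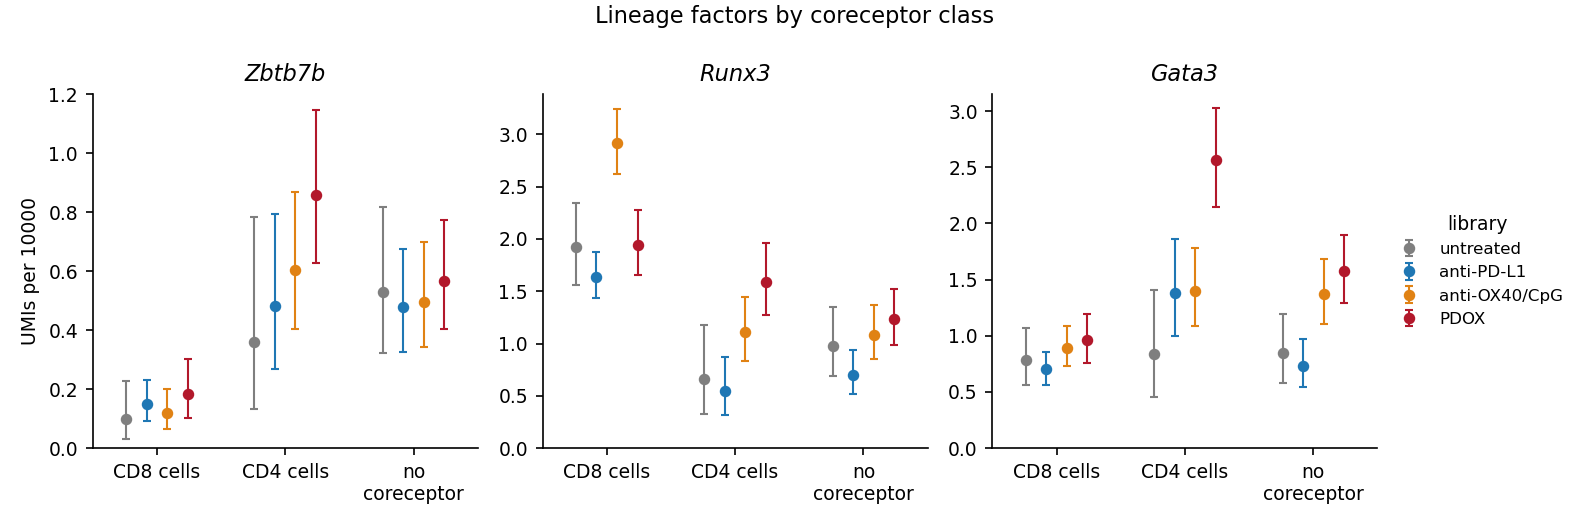
*Zbtb7b*, *Runx3* and *Gata3* in CD8, CD4 and no-coreceptor cells of each library, in UMIs per 10000 UMIs of the class, with exact 95% intervals for counting error. *Zbtb7b* was higher in CD4 than in CD8 cells in 4 of 4 libraries and *Runx3* lower, and *Gata3* in CD4 cells reached 2.56 in PDOX against 0.840 in the untreated library.

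Thinned to 1000 UMIs per cell, the factors kept the order of CD4 and CD8 cells in each library. *Zbtb7b* was then found in 3.01%, 4.52%, 5.57% and 8.53% of CD4 cells and 0.91%, 1.51%, 1.23% and 1.51% of CD8 cells. *Runx3* was found in 4.68%, 6.33%, 10.4% and 15.4% of CD4 cells and 18.3%, 15.6%, 24.1% and 17.4% of CD8 cells. *Gata3* was found in 9.40%, 13.6%, 11.7% and 20.7% of CD4 cells and 7.54%, 6.12%, 8.14% and 8.82% of CD8 cells. For all 3 factors the CD4 cells of the PDOX library had the highest detection among the CD4 classes.

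Other genes of the lineage split were read from lists chosen with earlier results of these data known, and the helper and cytotoxic lists differed by coreceptor class while the regulators did not pass the test. Of 11 helper-lineage genes tested, 8 were lower in CD8 than in CD4 cells, beside 1.59% of all genes, and none higher, with a list median log2 difference of -1.32 against -0.01 over all genes. The furthest were *Cd40lg*, the CD40 ligand (log2 -3.41, edgeR with Benjamini-Hochberg adjusted p = 1.6e-05), *Tnfrsf4*, which encodes OX40 (-2.34), *St8sia6* (-2.26) and *Tbc1d4* (-2.04). *Cd40lg* stood at 0.600, 0.837, 0.899 and 0.786 per 10000 UMIs in CD4 cells and between 0.039 and 0.090 in CD8 cells. Of 17 cytotoxic-lineage genes tested, 14 were higher in CD8 cells, beside 2.33% of all genes, and none lower, with a median of 2.14. Granzyme genes *Gzmb* (2.76) and *Gzma* (2.56) and the chemokine *Ccl5* (2.51) were among them, and the chemokine *Xcl1* had 117 UMIs in CD8 and 0 in CD4 cells, at least 15.2-fold higher against a floor of 3 UMIs over the CD4 cells. Of 26 tested regulators of the coreceptor genes and of the lineage split, such as *Runx1*, *Tox* and *Bcl11b*, none was called in either direction (median -0.06). This stood beside 3.92% of all 6145 genes, a share at which a list of 26 may well hold no call. The regulator nearest to the factors, *Runx1*, had a log2 difference of -0.63 (adjusted p = 0.063, edgeR with Benjamini-Hochberg adjustment). Of 11 genes of the T cell receptor complex and coreceptor signalling, 1 was called, beside 3.92% of all genes. This was *Cd247*, the CD3 zeta chain (-0.42, adjusted p = 0.028 in edgeR, Benjamini-Hochberg), whose call was lost without anti-PD-L1, anti-OX40/CpG or PDOX (-0.35 to -0.44). *Cd3d*, *Cd3e* and *Cd3g* were not called, with log2 differences of 0.15, 0.15 and -0.11.

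The cells were next split by *S100a4*, a calcium-binding protein gene raised in effector and memory T cells. The share of *S100a4*+ cells differed widely between libraries, from 3.70% of untreated through 11.01% of anti-PD-L1 and 17.2% of anti-OX40/CpG to 33.6% of PDOX CD8 cells, and 8.82%, 6.09%, 27.8% and 51.2% of CD4 cells. *Gata3* followed this split in both lineages. In CD4 cells its level was 3.79 in *S100a4*+ and 1.16 in *S100a4*- cells under anti-PD-L1, 2.40 and 0.778 under anti-OX40/CpG, and 3.46 and 1.18 in PDOX. The *S100a4*+ levels lay above the *S100a4*- levels in the 3 libraries with enough cells, and the log2 difference was 1.60 (SE 0.22, adjusted p = 0.0001, edgeR with Benjamini-Hochberg adjustment) in a fit that called 9.53% of 3989 genes, 4.69% higher and 4.84% lower. The call was lost without the anti-OX40/CpG library (1.59, adjusted p = 0.069 in edgeR, Benjamini-Hochberg). In the untreated library, with 9 *S100a4*+ CD4 cells, the levels were 1.51 and 0.713. The PDOX to untreated ratio of *Gata3* was 1.66 (CI 0.77 to 3.87) in *S100a4*- and 2.29 (0.87 to 8.56) in *S100a4*+ CD4 cells, against 3.05 in all CD4 cells. The PDOX to anti-OX40/CpG ratio was 1.52 (0.83 to 2.80) and 1.44 (1.01 to 2.09), against 1.83. The part of the *S100a4*+ share in the ratios over all CD4 cells was not tested.

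In CD8 cells *Gata3* stood at 0.333, 1.26, 1.19 and 1.22 per 10000 UMIs in *S100a4*+ and 0.812, 0.534, 0.805 and 0.765 in *S100a4*- cells. It was higher in *S100a4*+ cells in 3 of 4 libraries, the exception being the untreated library with 12 *S100a4*+ cells. The log2 difference was 0.80 (SE 0.22, adjusted p = 0.015, edgeR with Benjamini-Hochberg adjustment), where 18.4% of 5411 genes were called, 9.41% higher and 8.96% lower. The call was lost with DESeq2 (0.73, adjusted p = 0.15) and, in edgeR, Benjamini-Hochberg, without anti-PD-L1 (0.56, adjusted p = 0.25), anti-OX40/CpG (0.86, 0.066) or PDOX (0.82, 0.076). The difference between the CD4 and CD8 changes was itself tested over 3 libraries and was not called (-0.71 on the log2 scale, SE 0.30, adjusted p = 0.79, edgeR with Benjamini-Hochberg adjustment). That fit called 3 of 5377 genes (0.0558%, with 0.0372% higher in CD8 and 0.0186% lower), and 327 genes were at an unadjusted p under 0.05. On simulated data it recovered 13.5% of 200 genes changed by a log2 difference of 1, so a missing call does not show that the lineages are alike. The *S100a4*+ cells were deeper in every library. The gap was widest in anti-PD-L1 CD8 cells, with medians of 3373 against 1690.5 UMIs. In PDOX the medians were 2022 against 1483 in CD8 cells and 2026.5 against 1381 in CD4 cells.

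*Runx3* in both lineages and *Zbtb7b* in CD4 cells were not called across this split. On simulated data the CD4 fit recovered 39% of 200 genes changed by a log2 difference of 1. A missing call in CD4 cells therefore does not show that the subsets are alike. *Runx3* in CD8 cells stood at 1.67, 1.58, 3.10 and 2.13 in *S100a4*+ and 1.94, 1.66, 2.86 and 1.81 in *S100a4*- cells, a log2 difference of 0.13 with a 95% interval of -0.16 to 0.42 (adjusted p = 0.60, edgeR with Benjamini-Hochberg adjustment). In CD4 cells it stood at 0.759, 1.31 and 1.98 in *S100a4*+ against 0.527, 0.981 and 0.993 in *S100a4*- cells of the 3 treated libraries, higher in 3 of 3 (log2 0.73, SE 0.25, adjusted p = 0.09, edgeR with Benjamini-Hochberg adjustment). The ratio within these libraries was 1.44 (CI 0.16 to 6.19), 1.34 (0.74 to 2.38) and 1.99 (1.20 to 3.43). In the untreated library, outside the fit with 9 *S100a4*+ CD4 cells, it was 6.36 (1.62 to 26.3). Among *S100a4*- cells alone the CD8 to CD4 ratio of *Runx3* was 5.43, 3.15, 2.92 and 1.82 in the order of libraries above, with a PDOX interval of 1.12 to 3.09. Among *S100a4*+ cells it was 0.74 (0.18 to 2.89), 2.08 (0.55 to 17.7), 2.36 (1.49 to 3.89) and 1.08 (0.76 to 1.53). In PDOX the ratio was nearer to 1 in *S100a4*+ than in *S100a4*- cells, with intervals that overlapped. The part of this split in the low *Runx3* ratio of all PDOX cells was not tested. *Zbtb7b* in CD4 cells was 0.379, 0.601 and 0.897 in *S100a4*+ against 0.492, 0.609 and 0.804 in *S100a4*- cells (log2 0.07, SE 0.32, adjusted p = 0.93, edgeR with Benjamini-Hochberg adjustment). In CD8 cells *Zbtb7b* had too few UMIs for a test across the split. It stood at 0.333, 0.193, 0.216 and 0.370 in *S100a4*+ against 0.083, 0.136, 0.089 and 0.042 in *S100a4*- cells. The ratio was 8.70 (CI 1.97 to 79.4) in PDOX, on 13 and 2 UMIs, and 2.75 (1.55 to 4.87) pooled over libraries, with intervals for counting error only. The difference between the lineages in this split was not called for *Zbtb7b* (log2 1.36, SE 0.60, adjusted p = 0.79, edgeR with Benjamini-Hochberg adjustment) or *Runx3* (-0.57, SE 0.30, adjusted p = 0.84). That fit recovered 13.5% of changed genes on simulated data, so likeness of the lineages is not shown.

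**Figure D5:**
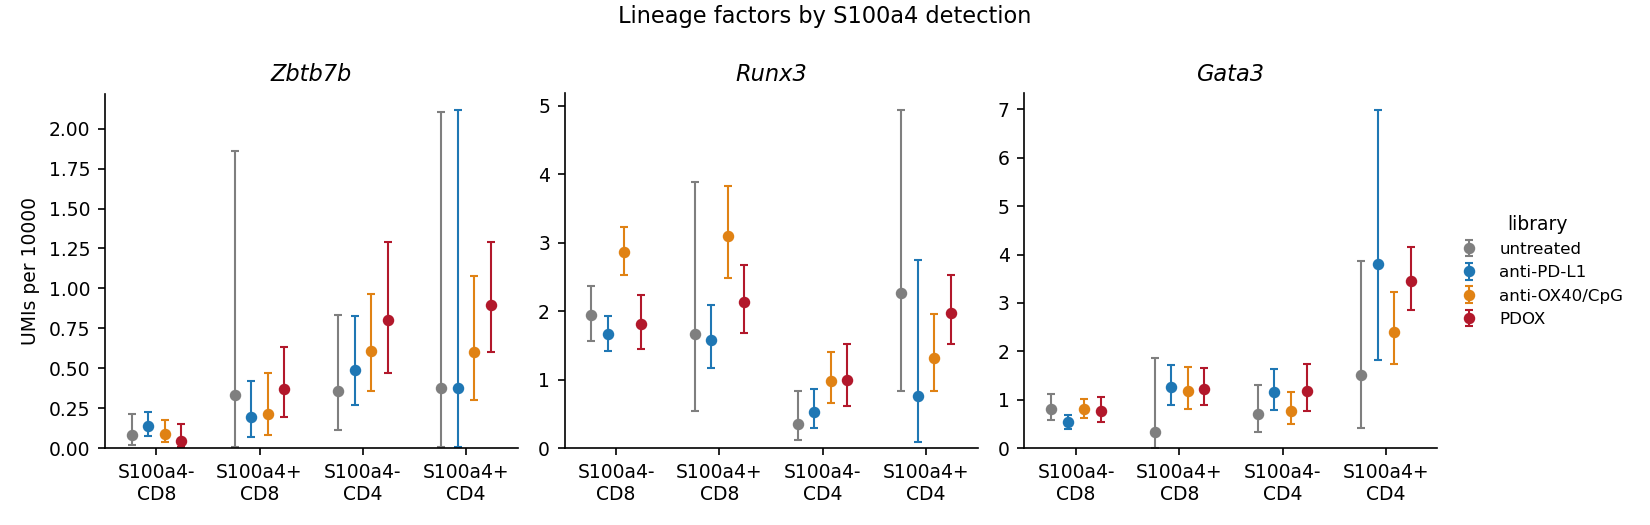
*Zbtb7b*, *Runx3* and *Gata3* in *S100a4*+ and *S100a4*- CD4 and CD8 cells of each library, in UMIs per 10000 UMIs, with exact 95% intervals. *Gata3* in CD4 cells was higher in *S100a4*+ cells of the 3 treated libraries (3.79, 2.40 and 3.46 against 1.16, 0.778 and 1.18), and the untreated *S100a4*+ points rest on 9 CD4 and 12 CD8 cells.

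Markers of monocytes moved with the *S100a4* split in some libraries. The 7 markers together held 220 UMIs per 10000 in *S100a4*+ CD8 cells of the untreated library against 8.45 in *S100a4*- cells, and 92.0 against 7.69 under anti-PD-L1, with all 7 detected over the libraries. In the anti-OX40/CpG and PDOX CD8 cells they held 10.9 and 8.53 against 5.46 and 6.27. In CD4 cells the sums were 319 against 7.70 in the untreated library and between 9.01 and 10.9 against 6.93 to 8.33 in the others. Without cells that held markers of other types, *Gata3* was higher in *S100a4*+ cells, by 1.79 in CD4 and 1.01 in CD8 cells on the log2 scale (adjusted p = 0.0005 and 0.0052 in edgeR, Benjamini-Hochberg). Of the monocyte markers this filter used *Csf1r* and *Ms4a6c* only. It left 6 untreated and 7 anti-PD-L1 *S100a4*+ CD4 cells, so that CD4 fit held anti-OX40/CpG and PDOX alone. With 4 untreated *S100a4*+ CD8 cells left, that CD8 fit held the treated libraries alone.

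Among the regulators, the 4 genes *Lef1*, *Satb1*, *Tcf7* and *Bach2*, factors of naive and memory T cells, were lower in *S100a4*+ cells of both lineages. Their log2 differences were -1.95, -1.88, -1.66 and -1.22 in CD8 cells and -2.51, -2.15, -1.43 and -2.62 in CD4 cells. *Tox* was higher in CD8 cells (1.01, adjusted p = 0.0095, edgeR with Benjamini-Hochberg adjustment), a call lost without anti-OX40/CpG (0.30, adjusted p = 0.58). With *Tox*, 5 of 26 regulators were called in CD8 cells, where 18.4% of all genes were, and 4 of 23 in CD4 cells, where 9.53% were, so the share in CD8 cells was near that of all genes. Of 17 cytotoxic-lineage genes tested in CD8 cells 11 were higher and 2 lower, beside 9.41% and 8.96% of all genes. In CD4 cells 9 of 10 were higher and 1 lower, beside 4.69% and 4.84%, led by *Ccl5* (3.25), *Nkg7* (3.11) and *Klrk1* (3.04). Of 11 helper-lineage genes in CD4 cells, *Tnfrsf4* (1.74), *Rora* (1.29) and *Icos* (1.21) were higher and *St8sia6* (-2.09) and *Izumo1r* (-0.90) lower. In CD8 cells *Rora* was higher (2.15) and *Il7r* (-1.31) and *Tnfsf8* (-1.16) lower, of 6 tested. *Unc119*, an activator of Lck, was higher in both (2.42 and 1.99).

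Many of these calls rested on single libraries. The CD4 fit went from 380 to 18 calls without anti-OX40/CpG, and of its genes named in the lists above, *Satb1* and *Nkg7* alone kept their call. Without PDOX it made 78 calls, and *Bach2*, *Klrk1*, *Tnfrsf4*, *Rora*, *Icos*, *St8sia6*, *Izumo1r* and *Unc119* lost theirs. *St8sia6* lost its call without anti-PD-L1 too. In the CD8 fit, *Tnfsf8* lost its call without any 1 of the 3 treated libraries and *Bach2* without anti-PD-L1. *Cd3d* was lower in *S100a4*+ CD8 cells (-0.40, adjusted p = 0.041, edgeR with Benjamini-Hochberg adjustment), a call lost when any single library was left out (-0.30 to -0.50). Its levels were 13.4 against 22.3 in the untreated and 14.2 against 22.6 in the anti-PD-L1 library, where the monocyte markers differed most, and 19.4 against 23.2 and 21.1 against 24.0 in the others. Without cells that held markers of other types the *Cd3d* difference was -0.14 (adjusted p = 0.54, edgeR with Benjamini-Hochberg adjustment). That fit no longer held the untreated library, which was left with 4 *S100a4*+ CD8 cells.

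The CD8 genes, each tested in cells gated by its partner, were not called: *Cd8b1* differed by 0.09 (SE 0.11, adjusted p = 0.60, edgeR with Benjamini-Hochberg adjustment, 20.6% of 4388 genes called) and *Cd8a* by -0.18 (SE 0.17, adjusted p = 0.52, 18.8% of 5202 called). Between libraries, the PDOX to untreated ratio of *Cd8b1* was 1.09 (CI 0.99 to 1.19) in *S100a4*- CD8 cells. In *S100a4*+ CD8 cells it was 2.33 (1.66 to 3.39), on 34 untreated UMIs from 12 cells. Against anti-PD-L1 and anti-OX40/CpG it was 1.03 and 1.02 in *S100a4*- and 1.30 and 1.24 in *S100a4*+ CD8 cells.

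The cells with no coreceptor UMI were compared with the CD8 and the CD4 cells, in fits added after their values had been seen. *Zbtb7b* in them stood at 0.530, 0.479, 0.497 and 0.568 per 10000 UMIs, inside the range of its CD4 levels and above each CD8 level. It was higher than in CD8 cells by 1.83 on the log2 scale (SE 0.22, adjusted p = 0.00016, edgeR with Benjamini-Hochberg adjustment) in 4 of 4 libraries. *Runx3* stood at 0.980, 0.703, 1.08 and 1.24 and was lower than in CD8 cells (log2 -1.11, SE 0.13, adjusted p = 0.00014, edgeR with Benjamini-Hochberg adjustment), also in 4 of 4. This fit called 8.47% of 7025 genes, 4.56% higher and 3.91% lower. *Gata3* stood at 0.848, 0.733, 1.37 and 1.58, a log2 difference of 0.40 (SE 0.13, adjusted p = 0.09 in edgeR, Benjamini-Hochberg), which passed the test with other-type cells left out (0.62, adjusted p = 0.0063) and with cells thinned to 1000 UMIs (0.55, adjusted p = 0.019). Of 11 helper-lineage genes 7 were higher than in CD8 cells, led by *Cd40lg* (3.01), and of 19 cytotoxic-lineage genes 13 were lower. Of 26 regulators 3 were higher (*Runx1*, *Satb1* and *Ets1*) and 1 lower (*Tcf3*), beside 4.56% and 3.91% of all genes. *Runx1* differed by 0.82 (adjusted p = 0.0027, edgeR with Benjamini-Hochberg adjustment). *Cd3d* (-0.41) and *Cd3e* (-0.30) were lower.

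Against CD4 cells, the no-coreceptor cells showed no called difference in any factor. The log2 differences were -0.21 for *Zbtb7b* (SE 0.21), 0.02 for *Runx3* (SE 0.17) and -0.43 for *Gata3* (SE 0.17), with adjusted p-values of 0.88, 1.0 and 0.59 in edgeR, Benjamini-Hochberg. This fit called 19 of 6159 genes (0.308%), 0.292% higher and 0.0162% lower, with 450 at an unadjusted p under 0.05, and none of the lists' genes was called. The 18 higher genes, singled out here after their values were seen, included *Fcer1g*, *Spi1*, *Cybb*, *S100a8* and *Cd79a*, genes of myeloid and B cells, and the 1 lower gene was the chemokine receptor *Cxcr3*. Monocyte markers summed to 85.6, 71.5, 21.1 and 47.99 UMIs per 10000 in the no-coreceptor cells, 57.1, 8.40, 7.73 and 9.68 in CD4 and 20.9, 27.2, 6.75 and 7.23 in CD8 cells. Their part in these differences was not tested. In fits without cells that held any of 23 markers of other cell types, the log2 differences against CD8 cells were 2.25 for *Zbtb7b* and -1.18 for *Runx3*. Of the monocyte markers that filter used *Csf1r* and *Ms4a6c* only. Cells with *Lyz2* or *Cst3* but none of the 23 therefore stayed in. T cell receptor constant genes were not analysed here, so gamma-delta T cells in this class cannot be told apart from alpha-beta T cells.

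In the cells with UMIs of both coreceptors the factors differed between libraries. *Zbtb7b* stood at 0.179, 0.284, 0.333 and 0.637 per 10000 UMIs in the order of libraries above, between the CD8 and the CD4 level of each library. *Runx3* stood at 0.893, 0.995, 1.78 and 2.09, between the classes in the first 3 libraries and above both in PDOX. *Gata3* stood at 0.714, 1.18, 2.22 and 1.957, below both classes in the untreated library, between them under anti-PD-L1 and in PDOX, and above both under anti-OX40/CpG, at 1.59 times the CD4 level (CI 1.04 to 2.38). Most of these intervals were wide, and no test was run across libraries.

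The genes whose pattern was most like each member were taken over 8 profiles, the CD8 and CD4 cells of the 4 libraries, by Pearson's r of log2 counts scaled to library size across 6142 genes. The 8 profiles come from 4 libraries and the gate fixes the pattern of the coreceptor genes, so the values are a description. For *Cd4* the nearest were *Cd40lg* (0.99), *Pdlim4* (0.98) and *Izumo1r* (0.97). *Cd8a* and *Cd8b1* shared their 3 nearest, *Xcl1*, *Gm43698* and *Slc3a2*, with *Xcl1* first for each (0.996 and 0.995). *Zbtb7b* ran closest to *Bnip2* (0.99), *Itgb7* (0.98) and *Tnfrsf25* (0.97). *Runx3* ran closest to *Pknox1* (0.97), *Dnajc15* (0.95) and *Cd7* (0.95), and *Gata3* to *Fkbp1a* (0.99), *Cd2* (0.96) and *Pkp3* (0.95).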

How the data were processed

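Blood T cells from 4 mouse libraries, 1 per treatment, were profiled by 10x Chromium 3′ single-cell RNA sequencing (v2 chemistry). The authors made the deposited counts, raw UMI counts per gene and cell, with Cell Ranger on mm10 (build per the submitters' notes, which also name Seurat 2). 3′ UMIs do not separate transcripts of one gene. Every deposited cell column was used. Cells with at least 200 genes and a UMI of *Cd3d*, *Cd3e* or *Cd3g* were kept, 4858 of 5434, and no doublet caller was run. The fits excluded 13 mitochondrial, 102 ribosomal and 10 hemoglobin genes, and cells were not clustered.

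UMIs were summed per library and class (at least 10 cells in each class) and tested in edgeR 4.0.16 (R 4.3.3; quasi-likelihood, TMM, filterByExpr) with library as a block and Benjamini-Hochberg adjustment over all genes tested, called at an adjusted p under 0.05. Since the classes of a library come from one cell suspension, the block is the library itself. The fits were tested on simulated data. Shares have exact (Clopper-Pearson) and ratios exact Poisson-based 95% intervals. Python 3.11.15 with numpy 2.4.6, scipy 1.17.1, pandas 2.3.3 and matplotlib 3.10.9 did the rest. Alternatives were DESeq2 1.42.0, no filter on low counts, no library term, 1 library left out, thinning to 1000 UMIs, a gate on log1p values above 1, cells over 2900 genes or with markers of other types left out, and technical genes kept. Named genes are the 6 members, the *Cd3* genes and, from each list, up to 4 called genes in each direction with the largest log2 difference, and 3 most alike genes per member. The members and lists were chosen with earlier results of these data known. Promoters came from RefSeq (GRCm38.p6).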

Additional observations from a re-analysis of the deposited data

Results flagged for a closer look

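Among the 441 cells with at least 200 genes and no UMI of a *Cd3* gene, which the comparisons did not use, *Cd4* was found in 5.44%, *Cd8a* in 3.63% and *Cd8b1* in 10.7%. These values were picked out because they lie in cells outside the main measurement and above the limit that a count of 0 allows. The cells held a median of 1223 UMIs, against 1569 in T cells. In the 132 of them with at least 2 B cell markers the shares were 3.03%, 2.27% and 9.85%, and in the 83 with no marker of another cell type, at a median of 739 UMIs, they were 13.3%, 8.43% and 19.3%.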

How the results depend on the processing

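Over all alternatives, the class shares, counts of calls and coreceptor differences kept direction and call in 131 cases, were weaker in 25, stronger in 14, moved beyond their interval in 15 and changed sign in 2. A count was weaker or stronger where it changed by over 1.5 times. For single genes of the fits 618 cases kept direction and call, 76 lost the call, 3 gained it and 7 changed sign. Without the library as a replicate block, 85 genes were called between CD8 and CD4 cells (241 with it), 0 in the test of the difference (3), 109 between no-coreceptor and CD8 cells (595) and 1 against CD4 cells (19). DESeq2 called 527 genes across the *S100a4* split in CD8 cells (994), 139 in CD4 cells (380), 258 between no-coreceptor and CD8 cells and 12 against CD4 cells. Without a filter on low counts 472, 30, 1054 and 298 genes were called between CD8 and CD4 cells, in the test of the difference, and for no-coreceptor against CD8 and CD4 cells. Thinning gave 388 and 178 calls across the split in CD8 and CD4 cells, 0 in the test of the difference and 372 for no-coreceptor against CD8 cells. The log1p gate gave 390 calls between CD8 and CD4 cells, 16 in the test of the difference and 151 for no-coreceptor against CD4 cells. Leaving out cells with markers of other types gave 380, 10, 387 and 42, and keeping technical genes gave 363 between CD8 and CD4 cells.

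Leaving out 1 library gave 77 (without anti-OX40/CpG) to 226 calls between CD8 and CD4 cells, with 129 without PDOX. Across the split in CD8 cells it gave 519 (without anti-PD-L1) to 1119 (without untreated), with 639 without anti-OX40/CpG and 645 without PDOX. In CD4 cells it gave 18 (without anti-OX40/CpG) to 306, with 78 without PDOX. The test of the difference gave 1 (without PDOX) to 9 (without anti-PD-L1), with 6 without anti-OX40/CpG. No-coreceptor against CD8 cells gave 318 (without anti-PD-L1) to 537, and against CD4 cells 2 (without anti-PD-L1) to 94 (without untreated), with 4 without PDOX and 10 without anti-OX40/CpG. *Cd8a* across the *S100a4* split turned to 0.15 with thinning and 0.25 without cells with other markers, in fits that no longer held the untreated library. With 1 library left out *Zbtb7b* across the split in CD4 cells ran from -0.079 (without PDOX) to 0.14, and between no-coreceptor and CD4 cells from -0.31 to 0.011 (without PDOX). *Runx3* between no-coreceptor and CD4 cells turned to -0.029 without the library term, ran from -0.063 (without anti-PD-L1; -0.06 without untreated) to 0.24 with 1 library left out, and was -0.21 with thinning and -0.00063 without cells over 2900 genes. Thinned shares are in the report, with CD8 cells among CD8 and CD4 cells at 81.6%, 82.1%, 77.9% and 66.6%, cells with both at 1.88%, 2.09%, 1.89% and 2.91% and with no coreceptor at 40.3%, 37.8%, 38.0% and 44.3%. Without the *Cd3* requirement the last share stood at 39.5% for untreated, 34.6% for anti-PD-L1 and 43.1% for PDOX cells. The cause of these changes was not tested, beyond fewer cells, genes or libraries where the setting removes them. A fit of *Foxp3*+ against other CD4 cells was not run, since only PDOX had 10 such cells. No pairing between treatments was possible because no replicate numbers are shared between groups of 1 library. The comparisons of cell classes were paired within libraries, with the library as the block. Depth limits *Zbtb7b* most: 92.9% of its cells held 1 UMI.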

Other observations

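*Foxp3*+ CD4 cells numbered 3, 3, 9 and 15 from the untreated library, through anti-PD-L1 and anti-OX40/CpG, to PDOX, too few for a test across libraries. Pooled over libraries, the 30 cells held *Zbtb7b* at 1.23 per 10000 UMIs against 0.614 in the other CD4 cells, *Gata3* at 1.91 against 1.74 and *Runx3* at 0.682 against 1.14. The pooled *Gata3* values join libraries that went opposite ways: the ratio of *Foxp3*+ to other CD4 cells was 7.58 (1.36 to 28.7) untreated, 0.91 (0.02 to 5.35) with anti-PD-L1, 2.08 (0.86 to 4.38) with anti-OX40/CpG and 0.25 (0.03 to 0.91) in PDOX, with intervals for counting error only.

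*Runx3* was found in 21.4% of the 280 *Zbtb7b*+ T cells, against 21.0% of all T cells. By library the share was 9.68%, 20.3%, 24.0% and 23.8% in that order, the first on 31 cells.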
